A study of Mus musculus with 8 samples.

Results

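A panel of 10 genes that mark the resident fibroblasts of the heart was followed in mouse heart RNA: Tcf21, Tbx20, Pdgfra, Ddr2, Cd34, Pi16, Dpep1, Dpt, Mfap5 and Gsn. They were picked by name as known markers, with earlier results of these data known, and are 10 of 55487 gene identifiers in the count table. All 10 were counted in every library and all 10 were among the 17636 genes tested. The RNA came from hearts in 4 groups of 2 libraries each. Set7KO mice, which carry a global knockout of Set7 bred from heterozygous crosses, received isoproterenol or saline, and wild-type (WT) mice received isoproterenol or saline. Isoproterenol, which stimulates beta-adrenergic receptors and is widely given to rodents as a model of adrenergic overload of the heart, was injected subcutaneously at 60 mg/kg, and the treatments ran for 14 days before collection. The labels state neither age, sex and strain, nor the part of the heart taken, nor whether each library was a separate animal. P-values therefore reflect how far these libraries differ within a group, which may be partly technical. The comparisons ask how the marker genes of resident fibroblasts stand after isoproterenol, and whether that differs without Set7.

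Cardiac fibroblasts lie between the muscle fibres and keep up the collagen network. Most of them descend from the epicardium, a step that needs the transcription factor Tcf21. Under chronic adrenergic load some become activated and make collagens and periostin, and markers of the resting state can move apart from markers of activation. The panel mixes genes that are close to specific for fibroblasts in the heart with genes shared with other cells: Cd34 is also on endothelial cells and blood progenitors, Tbx20 is also active in cardiomyocytes, and Gsn is widely expressed. In heart tissue, fewer fibroblasts and less RNA per fibroblast cannot be told apart.

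The promoters of 5 of the genes are shown. Of these, 4 hold the E-box CAGCTG, a form of the short element that basic helix-loop-helix factors, the class of Tcf21, bind. Ddr2 was added because it had the smallest p-value of the 10 by edgeR for the difference between the genotypes' responses to isoproterenol. That difference was -1.47 (SE 0.36, log2), with a sign opposite to that of Dpep1, Gsn and Pi16. With offsets for GC content and length it was -0.24 (SE 0.41). These promoters were chosen after the values were seen. Windows run from 250 bases before to 50 after a RefSeq gene start (GRCm38.p6) and are printed 5′ to 3′ on the strand of the gene, with each E-box in capitals.
Dpep1 promoter, chr8:123185985-123186284, plus strand: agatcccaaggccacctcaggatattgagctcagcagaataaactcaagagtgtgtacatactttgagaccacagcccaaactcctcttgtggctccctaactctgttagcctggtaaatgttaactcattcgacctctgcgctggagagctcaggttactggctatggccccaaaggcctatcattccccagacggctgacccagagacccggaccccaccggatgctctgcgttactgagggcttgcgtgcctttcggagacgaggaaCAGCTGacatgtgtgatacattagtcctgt
Dpt promoter, chr1:164796413-164796712, plus strand: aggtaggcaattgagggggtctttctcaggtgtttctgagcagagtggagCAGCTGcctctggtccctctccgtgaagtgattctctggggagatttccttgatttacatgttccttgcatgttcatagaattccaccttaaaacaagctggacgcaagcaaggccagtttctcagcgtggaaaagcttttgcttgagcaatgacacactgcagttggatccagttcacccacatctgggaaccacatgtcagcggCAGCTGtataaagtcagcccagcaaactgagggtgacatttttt
Gsn promoter, chr2:35256109-35256408, plus strand: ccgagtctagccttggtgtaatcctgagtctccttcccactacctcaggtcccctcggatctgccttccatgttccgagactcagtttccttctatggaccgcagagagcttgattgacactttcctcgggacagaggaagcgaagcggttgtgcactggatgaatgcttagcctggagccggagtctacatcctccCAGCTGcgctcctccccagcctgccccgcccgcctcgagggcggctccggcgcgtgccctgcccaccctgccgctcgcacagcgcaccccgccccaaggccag
Pi16 promoter, chr17:29318632-29318931, plus strand: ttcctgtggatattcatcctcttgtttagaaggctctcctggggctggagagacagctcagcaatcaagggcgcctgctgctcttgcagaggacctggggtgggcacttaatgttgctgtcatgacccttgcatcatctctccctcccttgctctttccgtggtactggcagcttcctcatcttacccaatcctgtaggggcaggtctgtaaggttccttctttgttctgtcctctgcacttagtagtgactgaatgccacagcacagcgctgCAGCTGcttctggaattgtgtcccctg
Ddr2 promoter, chr1:170088895-170089194, minus strand: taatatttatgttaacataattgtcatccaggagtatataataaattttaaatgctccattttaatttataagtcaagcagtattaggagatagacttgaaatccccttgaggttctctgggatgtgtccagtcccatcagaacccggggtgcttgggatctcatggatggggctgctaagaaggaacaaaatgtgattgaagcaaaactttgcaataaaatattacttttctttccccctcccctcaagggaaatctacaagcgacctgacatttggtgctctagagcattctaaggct
A window was found for 9 of the 10 genes. CAGCTG, which reads the same on both strands, was in the window closest to the annotated start for 4 of these 9 (Dpep1, Dpt, Gsn and Pi16), against 16.3% of 32851 windows of the same length across the genome. Dpt held 2 copies. The T-box half-site AGGTGTGA, searched on both strands for the class of factor to which Tbx20 belongs, was in 0 of 9 windows and in 1.28% of all windows. These are matches of letters and do not show binding. Whether the E-box goes with the difference between the genotypes' responses was not tested. On the log2 scale that difference was 0.06 (SE 0.37) for Dpt, which held 2 copies. Among genes without a match it was 1.25 (SE 0.54) for Tcf21, 0.15 (SE 0.32) for Cd34 and -1.73 (SE 0.71) for Tbx20. The Pi16 window lies 1202 bases and the Ddr2 window 21818 bases from the start in the GENCODE annotation, so both belong to other transcript starts.

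The libraries held 27847069 to 51705705 counts, and 3 counts, taken as the detection floor, equal 0.0598 to 0.112 CPM (counts scaled to the size of the library). The smallest count of any of the 10 genes was 209 (Tcf21 in Set7KO saline replicate 2), so counting error was small beside the spread between libraries. Setd7, which encodes Set7, had 3.79 and 3.92 CPM in Set7KO isoproterenol hearts, 58.1 and 72.6 in WT isoproterenol hearts, 4.45 and 5.70 in Set7KO saline hearts and 43.7 and 43.0 in WT saline hearts, so every library fitted its genotype label. The titles of the libraries also carry a letter that the labels do not explain: Set7KO saline replicate 2 has the letter of both WT saline libraries and not that of Set7KO saline replicate 1, and it was kept in its labelled group. Cardiomyocyte markers were abundant in every library, with a summed level of 35289.4 to 61716.4 RPKM (CPM divided by exonic length in kilobases) over 10 genes. Adipocyte markers were close to absent, at 0 to 6.97 RPKM summed, with all 6 at 0 counts in at least 1 library.

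Levels of the 10 genes per kilobase of exon spanned a wide range. Gsn, which encodes the actin-severing protein gelsolin, stood far above the rest at 927 ± 340.9 RPKM (mean ± SD over all 8 libraries). Dpep1 at 50.4 ± 15 RPKM and Dpt at 47.2 ± 7.12 RPKM came next and did not differ beyond their spread. Pi16 at 21.3 ± 6.42 RPKM and Cd34 at 16.7 ± 3.08 RPKM also overlapped. Mfap5 (5.58 ± 1.61), Tcf21 (3.72 ± 1.10), Pdgfra (2.91 ± 0.769), Tbx20 (2.00 ± 1.03) and Ddr2 (1.29 ± 0.476 RPKM) formed the low end. In this order the range of mean ± SD of each gene overlapped that of the next. The values that follow are normalised CPM, which compare libraries for 1 gene and not genes with each other.

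Of the 2 transcription factors, Tcf21 (ENSMUSG00000045680, chromosome 10, 22817281 to 22820174, minus strand, GRCm38) had 11.1 and 10.8 CPM in Set7KO isoproterenol hearts, 6.63 and 6.73 in WT isoproterenol hearts, 9.98 and 4.17 in Set7KO saline hearts, and 11.1 and 9.45 in WT saline hearts. Both WT isoproterenol libraries thus lay below both WT saline libraries, while in Set7KO hearts both isoproterenol libraries lay above both saline libraries, of which replicate 2 was the lowest of all 8. Tbx20 (ENSMUSG00000031965, chromosome 9, 24718138 to 24774303, minus strand), a regulator of heart development, had 25.6 and 11.0 CPM in Set7KO isoproterenol hearts, 41.0 and 38.4 in WT isoproterenol hearts, 12.2 and 33.7 in Set7KO saline hearts, and 15.8 and 14.3 in WT saline hearts. Its replicates differed by more than 2-fold within each Set7KO group, whereas the WT isoproterenol libraries lay together above every other library.

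Among the cell surface genes, Pdgfra (ENSMUSG00000029231, chromosome 5, 75152292 to 75198215, plus strand) encodes the PDGF receptor alpha, a tyrosine kinase that is used to label cardiac fibroblasts. It had 40.7 and 22.6 CPM in Set7KO isoproterenol hearts, 36.6 and 37.0 in WT isoproterenol hearts, 24.2 and 24.8 in Set7KO saline hearts, and 20.7 and 26.4 in WT saline hearts. The WT groups did not overlap, and in Set7KO hearts the 2 isoproterenol libraries lay on either side of the saline ones. Ddr2 (ENSMUSG00000026674, chromosome 1, 169972307 to 170110762, minus strand) encodes a tyrosine kinase receptor for fibrillar collagen. Its level was 10.2 and 8.64 CPM in Set7KO isoproterenol hearts, 20.2 and 16.8 in WT isoproterenol hearts, 12.6 and 10.7 in Set7KO saline hearts, and 9.22 and 7.39 in WT saline hearts. The WT isoproterenol libraries were the highest of all, and the Set7KO isoproterenol libraries lay below the Set7KO saline ones. Cd34 (ENSMUSG00000016494, chromosome 1, 194938819 to 194961279, plus strand), a surface sialomucin, had 136.0 and 124.2 CPM in Set7KO isoproterenol hearts, 160.2 and 125.8 in WT isoproterenol hearts, 108.3 and 83.7 in Set7KO saline hearts, and 108.1 and 125.7 in WT saline hearts. Isoproterenol libraries were the higher ones in both genotypes, in WT by a narrow margin between the nearest libraries.

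Of the secreted and membrane-anchored proteins, Pi16 (ENSMUSG00000024011, chromosome 17, 29317680 to 29330593, plus strand), a member of the CAP protein family that marks adventitial fibroblasts, had 161.6 and 194.8 CPM in Set7KO isoproterenol hearts, 114.4 and 76.9 in WT isoproterenol hearts, 149.1 and 82.9 in Set7KO saline hearts, and 158.0 and 148.3 in WT saline hearts. Dpep1 (ENSMUSG00000019278, chromosome 8, 123186242 to 123201812, plus strand), a membrane dipeptidase that cleaves leukotriene D4, had 153.3 and 198.9 CPM in Set7KO isoproterenol hearts, 85.9 and 114.2 in WT isoproterenol hearts, 122.5 and 85.9 in Set7KO saline hearts, and 109.4 and 132.6 in WT saline hearts. For both genes the Set7KO isoproterenol libraries were the 2 highest of the 8. Dpt (ENSMUSG00000026574, chromosome 1, 164796644 to 164824266, plus strand), or dermatopontin, is a matrix protein that binds decorin and collagen. It had 76.6 and 97.8 CPM in Set7KO isoproterenol hearts, 81.4 and 78.5 in WT isoproterenol hearts, 98.3 and 63.4 in Set7KO saline hearts, and 84.9 and 69.9 in WT saline hearts, so that all 4 groups overlapped. Mfap5 (ENSMUSG00000030116, chromosome 6, 122505845 to 122529290, plus strand), a glycoprotein of elastic microfibrils, had 28.7 and 24.7 CPM in Set7KO isoproterenol hearts, 25.3 and 18.0 in WT isoproterenol hearts, 17.7 and 11.0 in Set7KO saline hearts, and 16.0 and 18.7 in WT saline hearts. Gsn (ENSMUSG00000026879, chromosome 2, 35256380 to 35307892, plus strand) had 3356.1 and 4923.8 CPM in Set7KO isoproterenol hearts, 2028 and 2658 in WT isoproterenol hearts, 2994.8 and 1241.4 in Set7KO saline hearts, and 2834.4 and 3374.6 in WT saline hearts. Both Set7KO isoproterenol libraries exceeded both Set7KO saline libraries for Mfap5 and Gsn, and for Gsn the WT order was the other way round.

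**Figure D1:**
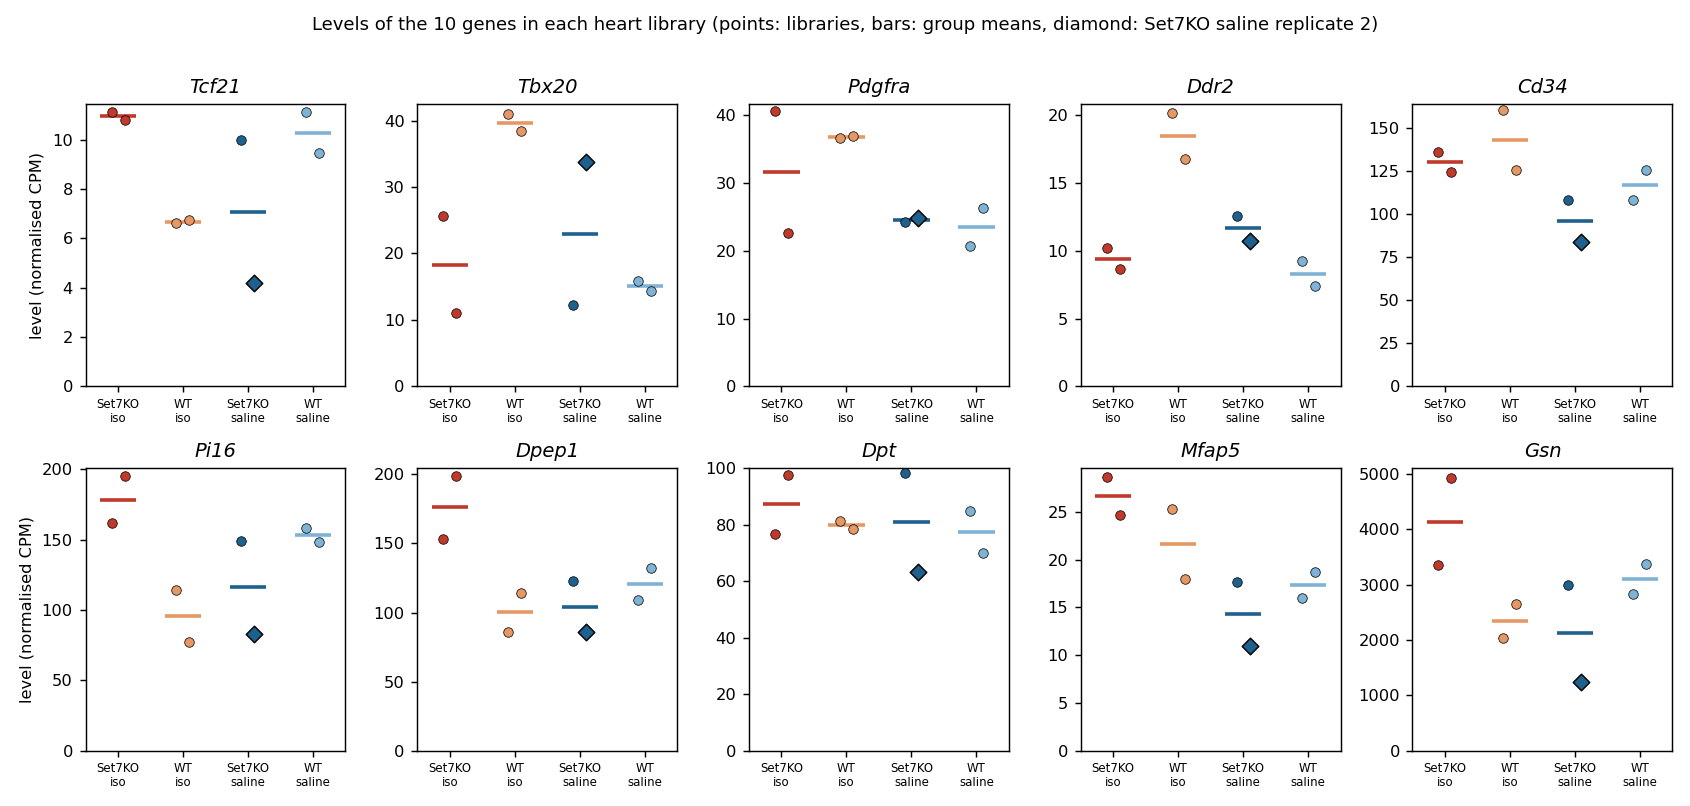
Normalised CPM (vertical axis, from 0) of each of the 10 genes in the 8 libraries, by group, with iso for isoproterenol; points are libraries, bars are means of 2 libraries and the diamond is Set7KO saline replicate 2. For Gsn, Mfap5, Tcf21, Cd34, Dpt and, by a margin too small to see, Dpep1 this library is the lowest of the 8, and for Ddr2 and Tbx20 the WT isoproterenol libraries are the highest.

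In Set7KO hearts, 8 of the 10 genes had a higher fitted level after isoproterenol than after saline, against 46.8% of all genes tested, and the median log2 fold change of the 10 was 0.53, against -0.04 over all genes tested. The largest differences were those of Gsn at 0.97 (SE 0.39, 1.95-fold), Mfap5 at 0.90 (SE 0.30), Dpep1 at 0.76 (SE 0.27), Tcf21 at 0.63 (SE 0.38) and Pi16 at 0.62 (SE 0.32), followed by Cd34 at 0.44 (SE 0.23) and Pdgfra at 0.37 (SE 0.29). Dpt was at 0.11 (SE 0.26), while Ddr2 at -0.31 (SE 0.25) and Tbx20 at -0.33 (SE 0.50) were lower after isoproterenol. None of the 10 passed edgeR's quasi-likelihood test with Benjamini-Hochberg adjustment (adjusted p of 0.471 to 0.904), nor did any of all genes tested (0%). Without adjustment, Gsn, Mfap5 and Dpep1 had p-values under 0.05 (0.0385, 0.0158 and 0.0217), that is 3 of 10 genes, against 9.66% of all genes tested. The isoproterenol libraries lay wholly above the saline libraries for 6 genes, against 16% of all genes tested, and wholly below for 1, against 18.7%, or 34.7% in either direction. limma-voom and DESeq2 called none of the 10, where they called 0% and 0.573% of all genes tested.

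This comparison leaned on 1 library. Set7KO saline replicate 2, the deepest with 51705705 counts, held the lowest level of 6 of the genes (for Dpep1 at 34.5 RPKM, beside 34.6 in WT isoproterenol replicate 1), and 9 of the 10 lay below their own mean over the 8 libraries there, with a median deviation of the 10 of -0.50 on the log2 scale. The shares of all genes for these counts were not computed. Median deviations of all genes tested in this library ran from 0.45 in the fifth poorest in GC content to -0.30 in the fifth richest. Without Set7KO saline replicate 2 the median log2 fold change of the 10 was 0.33. Gsn then stood at 0.47, Mfap5 at 0.60, Dpep1 at 0.53, Tcf21 at 0.13, Pi16 at 0.26 and Dpt at -0.17. Without Set7KO saline replicate 1 instead, the median was 0.84, with Tcf21 at 1.39 and Gsn at 1.74. Without Set7KO isoproterenol replicate 1, Pdgfra turned to -0.12.

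In WT hearts the genes split. Ddr2 at 1.16 (SE 0.25, 2.23-fold) and Tbx20 at 1.40 (SE 0.51, 2.64-fold) were higher after isoproterenol on the log2 scale, as was Pdgfra at 0.64 (SE 0.29), whereas Pi16 at -0.68 (SE 0.32), Tcf21 at -0.62 (SE 0.38) and Gsn at -0.41 (SE 0.39) were lower. Mfap5 at 0.32 (SE 0.30), Cd34 at 0.29 (SE 0.23), Dpt at 0.05 (SE 0.26) and Dpep1 at -0.27 (SE 0.27) differed by little more than their errors. The median was 0.17, against 0.06 over all genes tested. None of the 10 passed the edgeR test, as none of all genes did (0%); Ddr2 had an adjusted p of 0.0941 and Tbx20 of 0.118. Unadjusted p-values were under 0.05 for these 2 genes, against 31.7% of all genes tested. Groups did not overlap for 7 of the 10, against 72.7% of all genes. They lay above for 4, against 39.3% of all genes, and below for 3, against 33.4%, so these shares were near the background.

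Some alternative fits did call members in WT hearts. DESeq2 called Ddr2 (adjusted p = 0.00532) and Tbx20 (adjusted p = 0.0325), together with 15.4% of all genes, and limma-voom called none of the 10 and 0% of all genes. A fit of the WT libraries alone called Ddr2 (0.0226), Tbx20 (0.0212) and Pdgfra (0.0396), together with 29.7% of all genes tested in it. By edgeR without the filter on low counts, Ddr2 was called (adjusted p = 0.0345), as were 5.2% of all genes. Ddr2 and Tbx20 also passed without either Set7KO saline library, with adjusted p-values of 0.0233 and 0.0354 without replicate 1, and 0.0258 and 0.0365 without replicate 2; in these fits 20.1% and 20.7% of all genes passed.

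Averaged over the genotypes, the isoproterenol difference was above 0 for 9 of the 10 genes, against 52.3% of all genes tested, with a median of 0.32 against 0.02. Mfap5 at 0.61 (SE 0.21, adjusted p = 0.402), Pdgfra at 0.51 (SE 0.21, adjusted p = 0.491) and Ddr2 at 0.42 (SE 0.18, adjusted p = 0.507) had the smallest p-values of the 10 in the edgeR fit. Tbx20 was at 0.54 (SE 0.35, adjusted p = 0.64). Before adjustment these 3 of 10 genes had p-values under 0.05, against 9.4% of all genes. None of the 10 passed after it, where 0.051% of all genes did. Neither limma-voom nor DESeq2 called any of the 10, where they called 0.0794% and 1.42% of all genes. Cd34 followed at 0.36 (SE 0.16, adjusted p = 0.538). The isoproterenol and saline libraries overlapped for each of the 10, and 4.13% of all genes tested had groups that did not.

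**Figure D2:**
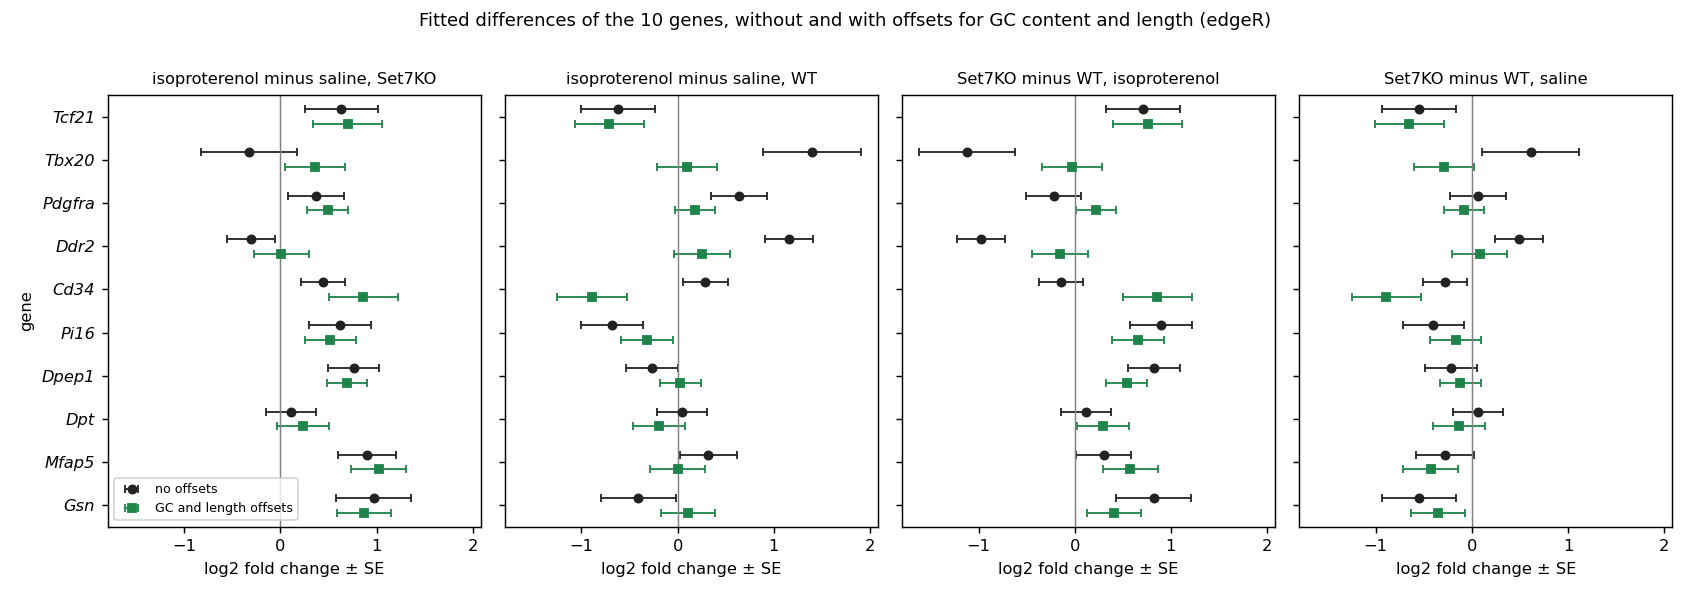
Log2 fold changes (horizontal axis) with standard errors of the 10 genes from edgeR in the 4 simple comparisons, as fitted (black circles) and with offsets for GC content and length (green squares). In Set7KO hearts the isoproterenol difference is above 0 for 8 genes as fitted and for 10 with offsets; in WT hearts Ddr2 is at 1.16 as fitted and 0.25 with offsets, and Cd34 at 0.29 and -0.89.

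Set7KO hearts were also set against WT hearts within each treatment; the same libraries serve in these comparisons and in those above. After isoproterenol, Pi16 at 0.90 (SE 0.32, 1.86-fold), Dpep1 at 0.82 (SE 0.27), Gsn at 0.82 (SE 0.39) and Tcf21 at 0.71 (SE 0.38) were higher in both Set7KO libraries than in both WT libraries. Ddr2 at -0.98 (SE 0.25) and Tbx20 at -1.12 (SE 0.50) were lower in both. The median of the 10 was 0.21, against -0.05 over all genes tested. Groups failed to overlap for 6 of 10 genes, against 68.2% of all genes (31.8% above and 36.3% below). By edgeR 0 of the 10 passed, with adjusted p-values of 0.229 to 0.786, and 0.00567% of all genes did, which is Setd7 alone. Unadjusted p-values were under 0.05 for Pi16, Dpep1 and Ddr2, against 19.9% of all genes tested. DESeq2 and limma-voom called none of the 10, where they called 1.68% and 0.00567% of all genes. A fit of the 4 isoproterenol libraries alone called Ddr2 (adjusted p = 0.0424), together with 7.68% of all genes tested in it.

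After saline, no gene of the panel had an unadjusted p under 0.05, against 10.3% of all genes. Ddr2 at 0.49 (SE 0.25, adjusted p = 0.501 by edgeR) had the only Set7KO libraries that did not overlap with WT, 1 of 10 genes against 38% of all genes. Tcf21 and Gsn, both at -0.55 (SE 0.38 and 0.39), were lower on average in Set7KO hearts; without Set7KO saline replicate 2 they stood at -0.02 and -0.03. By edgeR 0 of the 10 passed where 0.00567% of all genes did. Also by limma-voom and DESeq2 0 of the 10 were called, with 0.00567% and 0.119% of all genes. Without Set7KO saline replicate 1, Tcf21 passed (-1.30, adjusted p = 0.0402 by edgeR), together with 5.64% of all genes. Averaged over treatments, the genotype difference lay between -0.25 (Tbx20) and 0.30 (Dpep1) for the 10 genes, with a median of 0.05. None of them had an unadjusted p under 0.05 in that average, against 1.56% of all genes tested. None passed by edgeR, limma-voom or DESeq2, where 0.00567%, 0.00567% and 0.0113% of all genes did.

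The difference between the genotypes' responses was tested as an interaction, the isoproterenol effect in Set7KO minus that in WT. Gsn at 1.37 (SE 0.55), Pi16 at 1.30 (SE 0.45), Tcf21 at 1.25 (SE 0.54) and Dpep1 at 1.03 (SE 0.38) had positive values with unadjusted p-values under 0.05. Ddr2 at -1.47 (SE 0.36) and Tbx20 at -1.73 (SE 0.71) had negative ones. These are 6 of 10 genes, against 30.6% of all genes tested. By edgeR none passed after adjustment, with 0.0883 for Ddr2 as the smallest adjusted p of the 10 and 0% of all genes past the threshold. DESeq2 called Ddr2 (adjusted p = 0.0131) and Pi16 (0.0383), together with 13.2% of all genes. limma-voom called none of the 10 and 0% of all genes, and edgeR without the low-count filter called Ddr2 (0.0475) and 5.8% of all genes. Without Set7KO saline replicate 1, edgeR called Tcf21, Gsn, Pi16, Ddr2, Dpep1 and Tbx20, together with 31.6% of all genes; without replicate 2 it called none of the 10. The median of the 10 was 0.36 with all libraries, against -0.05 over all genes tested, 0.69 without replicate 1 and 0.14 without replicate 2.

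The differences varied with the GC content of the transcripts. Over the 10 genes, Spearman's rho between the GC content of the longest transcript and the log2 fold change was -0.867 for isoproterenol in WT, 0.733 for isoproterenol in Set7KO, 0.939 for Set7KO against WT after isoproterenol and 0.891 for the interaction. Across 17604 genes the same values were -0.710, 0.495, 0.709 and 0.729. These are correlations across genes, which share libraries and are not independent replicates. The genes with the lowest GC content, Tbx20 (42.3%), Cd34 (42.8%) and Ddr2 (45.1%), include the 2 with the largest positive difference in WT hearts, and those with the highest, Gsn (57.1%), Pi16 (54.9%) and Dpep1 (53.6%), were all lower after isoproterenol there. Among all genes tested, the fifth of genes richest in GC stood relative to the fifth poorest in GC at 0.17 and 0.54 (log2) in the Set7KO isoproterenol libraries, at -0.89 and -0.63 in the WT isoproterenol libraries, at 0.32 and -0.75 in the Set7KO saline libraries, and at 0.49 and 0.71 in the WT saline libraries. Both WT isoproterenol libraries and Set7KO saline replicate 2 thus had low values.

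**Figure D3:**
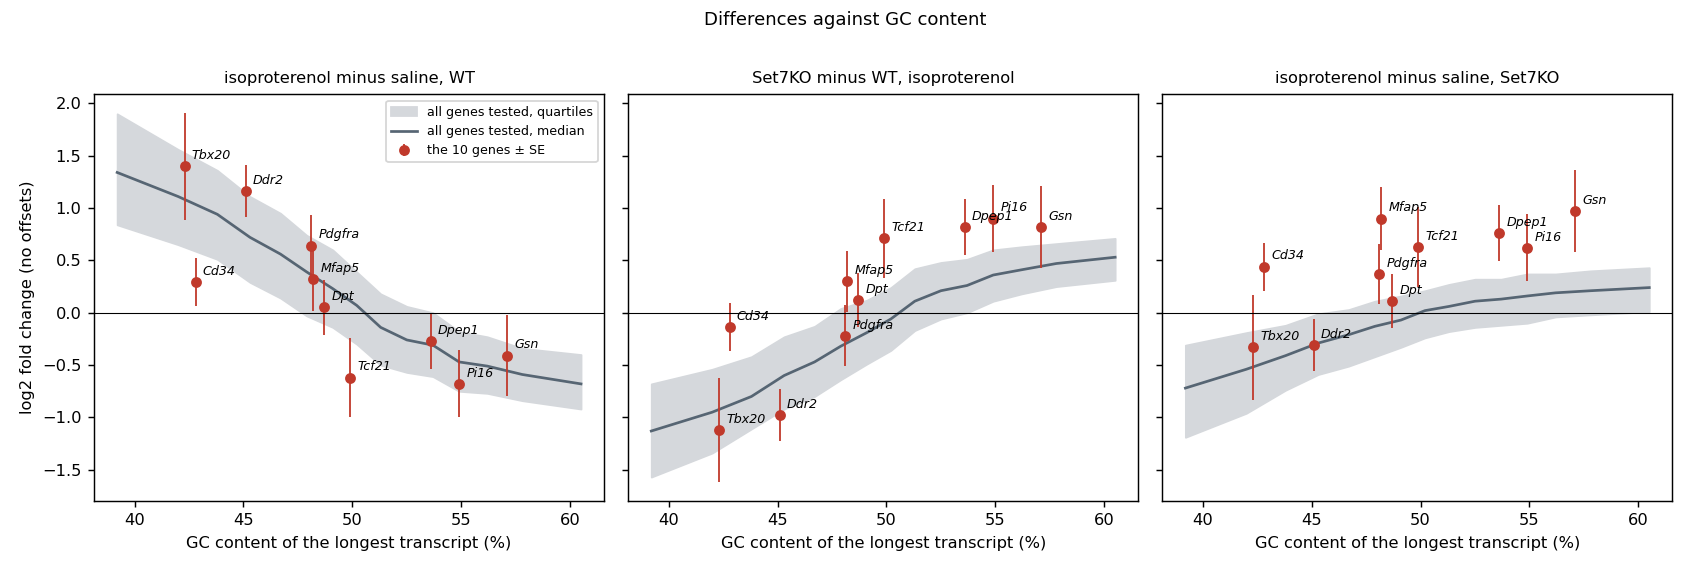
Log2 fold change (vertical axis) against GC content in percent of the longest transcript (horizontal axis) for the 10 genes (red points with standard errors), over the median and quartiles of all genes tested in GC bins (line and band), in 3 comparisons without offsets. In WT hearts 7 of the 10 genes lie within the band, Cd34 (0.29) and Tcf21 (-0.62) below it and Ddr2 (1.16) at its upper edge; in Set7KO hearts Gsn (0.97), Mfap5 (0.90) and Cd34 (0.44) are among the 7 above it.

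With offsets per library that take out the trends with GC content and length, the WT differences of Ddr2 and Tbx20 were 0.25 (SE 0.29) and 0.10 (SE 0.31), and that of Pdgfra 0.18 (SE 0.21). Gsn turned to 0.11 (SE 0.28) and Dpep1 to 0.03 (SE 0.21) in WT hearts, whereas Tcf21, of middling GC content, stayed lower after isoproterenol at -0.71 (SE 0.36). Cd34 turned to -0.89 (SE 0.36), although its CPM in WT isoproterenol hearts was above that in WT saline hearts. In Set7KO hearts the differences of Mfap5 at 1.02 (SE 0.29), Gsn at 0.87 (SE 0.28), Cd34 at 0.86 (SE 0.36) and Dpep1 at 0.69 (SE 0.21) had unadjusted p-values under 0.05. These are 4 of 10 genes, against 9.42% of all genes tested in the same fit. There, 10 of 10 genes were above 0, against 54.9% of all genes, and the median was 0.60 against 0.04. The interaction of Ddr2 shrank to -0.24 (SE 0.41) and that of Tbx20 turned to 0.26 (SE 0.44). Those of Tcf21 at 1.40 (SE 0.51), Gsn at 0.76 (SE 0.40) and Pi16 at 0.84 (SE 0.38) kept their sign. By edgeR, 3 of the 10 (Tcf21, Cd34 and Mfap5) had an unadjusted p under 0.05 in the interaction with offsets, against 15.3% of all genes. As fitted there were 6. Gsn (0.0924), Pi16 (0.0595) and Dpep1 (0.0572) were no longer among them. The largest interaction with offsets was that of Cd34, at 1.75 (SE 0.50, adjusted p = 0.206 by edgeR), against 0.15 (SE 0.32) as fitted, and Mfap5 was at 1.01 (SE 0.41, adjusted p = 0.296). In these fits too, none of the 10 passed after adjustment by edgeR in any of the 7 comparisons. With offsets and without Set7KO saline replicate 1, Tcf21 (2.22, adjusted p = 0.0315) and Cd34 (2.47, adjusted p = 0.0322) passed in the interaction, together with 3.48% of all genes. With offsets and without Set7KO saline replicate 2, the median in Set7KO hearts was 0.38, with 8 of the 10 genes above 0.

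Other marker lists were set beside the panel; they were chosen with earlier results of these data known. None of their genes passed the edgeR test in any of the 7 comparisons. For isoproterenol averaged over the genotypes, 24 other fibroblast genes had a median log2 fold change of 0.31, against 0.02 over all genes tested. Of the 24, 5 were higher and none lower with p below 0.05 before adjustment, against 9.4% of all genes in either direction. Among them were Lum, the proteoglycan lumican, at 1.47 (SE 0.32, adjusted p = 0.193), and Col14a1, a collagen associated with fibrils, at 0.90 (SE 0.23, adjusted p = 0.261). Lum had 29.2 and 20.1 CPM in WT isoproterenol hearts and 4.4 and 3.61 in WT saline hearts. Its Set7KO groups overlapped, with 13.6 and 5.78 CPM after isoproterenol and 5.66 and 9.91 after saline. In Set7KO hearts these 24 had a median of 0.56, close to the 0.53 of the panel, and in WT hearts -0.05. With offsets for GC content and length they had 0.70 and 0.01, beside 0.60 and 0.01 for the panel. The 18 genes of activated fibroblasts had medians of 0.78 in Set7KO and 0.57 in WT hearts, or 0.80 and 0.46 with offsets. Among them, averaged over the genotypes, Ccn5 was at 1.48 (SE 0.30, adjusted p = 0.186) and Postn, or periostin, at 1.46 (SE 0.39, adjusted p = 0.284). In that average 15 of the 18 were above 0, against 52.3% of all genes tested, and the lowest was at -0.77. For Postn the Set7KO groups overlapped, with 15.8 and 5.96 CPM after isoproterenol and 8.68 and 4.47 after saline. In WT hearts Postn had 35.5 and 17.3 CPM after isoproterenol and 4.74 and 6.93 after saline. These values of Lum and Postn are without offsets for GC content and length, and how far they follow the GC trend was not tested.

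The partners of the panel's receptors and matrix proteins did not pass either. In the averaged comparison 9.4% of all genes tested had an unadjusted p under 0.05 by edgeR. Of 5 PDGF ligands and receptors 0 did. Pdgfc, a ligand of Pdgfra, was at 0.64 (SE 0.29, adjusted p = 0.55) and Pdgfb at -0.44 (SE 0.26, adjusted p = 0.62). Of 6 collagen receptors and their relatives 1 had an unadjusted p under 0.05, Itga1, the integrin alpha 1 chain, at 0.60 (SE 0.16, adjusted p = 0.276). Ddr1, the paralogue of Ddr2, was at 0.91 (SE 0.25, adjusted p = 0.465) in Set7KO hearts, where Ddr2 was at -0.31 (SE 0.25). With offsets for GC content and length Ddr2 was at 0.01 (SE 0.29) there. Of 6 microfibril and elastic fibre genes 0 had an unadjusted p under 0.05 in the averaged comparison, where Fbln5 was at 0.37 (SE 0.19, adjusted p = 0.585). Of 9 cardiac transcription factors, of which 8 were tested because Isl1 had no counts, Mef2c was at 0.61 (SE 0.29, adjusted p = 0.562) and Nkx2-5 at -0.25 (SE 0.18, adjusted p = 0.666).

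Markers of the other cell types that share panel genes are given beside them, and their part in the panel's values was not tested. In the averaged comparison the medians were -0.06 for 10 endothelial genes, -0.10 for 10 cardiomyocyte genes, 0.27 for 10 pericyte and smooth muscle genes and -0.34 for 8 macrophage genes. In Set7KO hearts the medians of these lists were 0.20, 0.18, 0.49 and -0.23 in that order, against -0.04 over all genes tested. The pericyte and smooth muscle median there was thus near the 0.53 of the panel. In WT hearts they were -0.38, -0.42, 0.38 and -0.60, against 0.06 over all genes tested. With offsets for GC content and length the WT medians were -0.26, -0.19, 0.21 and -0.55, against -0.05 over all genes. The Set7KO medians with offsets were 0.23, 0.15, 0.41 and -0.16, against 0.04 over all genes and 0.60 for the panel. Summed endothelial markers were 404.9 and 464.4 RPKM in Set7KO isoproterenol hearts, 315.0 and 323.0 in WT isoproterenol hearts, 481.7 and 279.9 in Set7KO saline hearts, and 407.0 and 496.5 in WT saline hearts. Set7KO saline replicate 2 was the lowest of the 8 here as well, and also for the summed level of the other fibroblast genes (530.6 RPKM, with 682.1 to 998.0 in the remaining libraries). Of 8 epicardial and mesothelial markers 7 were at 0 counts in at least 1 library, with a sum of 0.532 to 1.22 RPKM, and the 6 genes of blood progenitors summed to 5.78 to 10.8 RPKM.

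**Figure D4:**
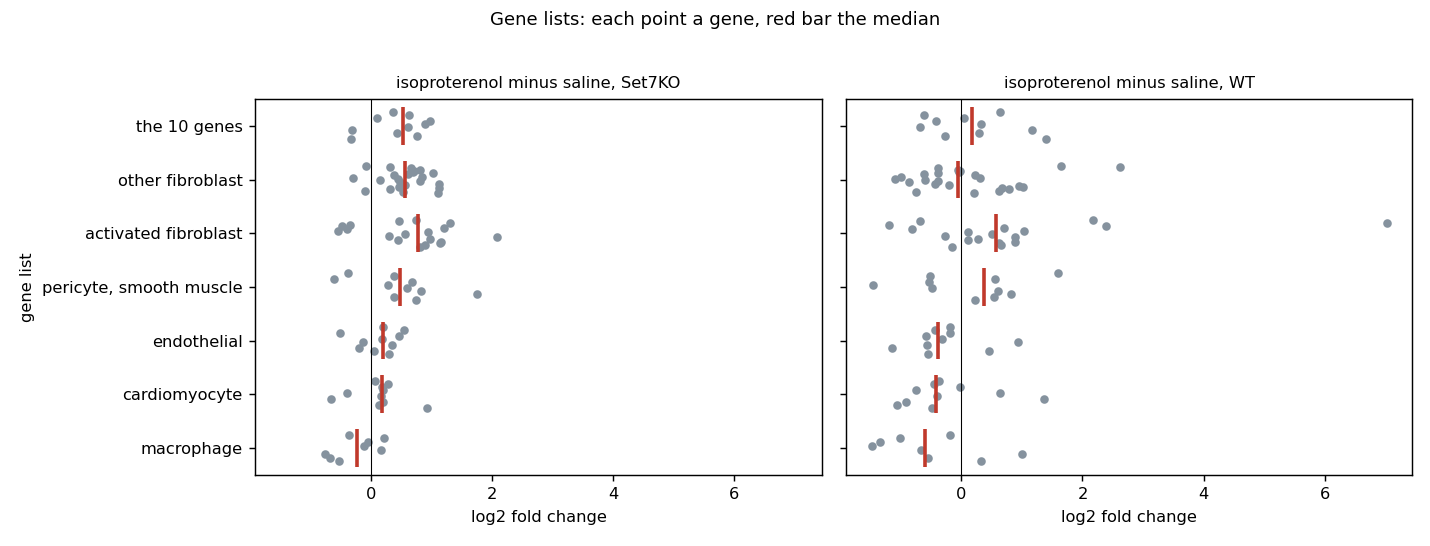
Log2 fold changes (horizontal axis, without offsets for GC content and length) of the genes of 7 marker lists after isoproterenol in Set7KO and in WT hearts. Grey points are genes and red bars are list medians. The medians of the 10 genes are 0.53 in Set7KO and 0.17 in WT hearts. Those of the other fibroblast genes are 0.56 and -0.05, and those of the pericyte and smooth muscle genes 0.49 and 0.38. The point at 7.02 is Cthrc1, at 0 counts in both WT saline libraries, whose fitted value depends on the prior count.

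Annotated genes on the opposite strand overlap exons of Pdgfra (456 and 166 bases), Pi16 (222), Cd34 (148) and Ddr2 (90 bases). The library kit keeps strand, but the labels do not say whether counting used it, and without it reads of the overlapping genes cannot be told apart from theirs.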

How the data were processed

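Heart RNA was sequenced as stranded mRNA libraries with single reads of 75 cycles, per the labels' protocols. The deposited values are raw counts per gene, made by the authors with tools among HISAT2, StringTie and edgeR on GRCm38, per the submitters' processing notes, which give no roles or versions here. Groups came from the labels. The 10 genes and the 13 other lists were chosen with earlier results of these data known. Of 55487 identifiers, 55227 were named by GENCODE M21. A mean for each of 4 groups was fitted to all 8 libraries (edgeR 4.0.16, R 4.3.3; TMM, filterByExpr, quasi-likelihood F-tests, two-sided, Benjamini-Hochberg within each of 7 contrasts over 17636 genes, threshold 0.05), leaving 4 residual degrees of freedom (biological coefficient of variation 28.4%). Standard errors derive from the F statistic. CPM use TMM library sizes, and RPKM divide them by exonic length. Log2 levels per library used a pseudocount of 0.5 CPM. Besides the 10 genes and Setd7, genes of other lists were named from the 3 per list that had the lowest p, among those averaging 1 CPM or more, in isoproterenol averaged over genotypes or in Set7KO; Cthrc1 was named after its value was seen. Alternatives were DESeq2 size factors, upper quartile, no filter, 1 CPM in 2 libraries, limma-voom (limma 3.58.1), DESeq2 1.42.0, only the groups compared, offsets from natural splines (5 degrees of freedom) of GC content and length, each library left out, and offsets with each Set7KO saline library left out. A group left with 1 library was assumed to vary like the others. The procedure was tested on simulated counts that had less spread than these libraries and a GC trend in no more than a single library. That checks the code and does not bear on the results here. Promoters are RefSeq windows on GRCm38.p6.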

Additional observations from a re-analysis of the deposited data

Results flagged for a closer look

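Of the 10 fibroblast genes, 4 had isoproterenol libraries that lay wholly on one side of the saline libraries in Set7KO hearts and wholly on the other side in WT hearts, against 18.6% of all genes tested. The difference between the effects (Set7KO minus WT, log2) was 1.25 for Tcf21 (SE 0.54, adjusted p = 0.16 by edgeR), 1.37 for Gsn (SE 0.55, adjusted p = 0.146) and 1.30 for Pi16 (SE 0.45, adjusted p = 0.117), each with the Set7KO isoproterenol libraries above and the WT ones below, an order found in 7.58% of all genes. It was -1.47 for Ddr2 (SE 0.36, adjusted p = 0.0883), with the order reversed, as in 11% of all genes; with offsets for GC content and length it was -0.24 (SE 0.41). The test of the difference itself did not pass for any of the 4 genes. Set7KO saline replicate 2 enters all 4 values.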

How the results depend on the processing

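No paired analysis was possible because the replicate numbers follow accession order and tie no library of one group to a library of another. Over the alternatives, all 7 comparisons gave 1230 values of the 10 genes, of which 1099 kept their sign and their side of the threshold, 25 came to pass it and 106 changed sign. Of the 777 among them whose fitted values are singled out in the text, 715 kept both, 25 came to pass and 37 changed sign. The cause of each change was not tested, except that leaving out libraries or fitting only the groups compared uses fewer samples.

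With 2 libraries a group, the counts of genes past the threshold moved with the tool and the filter. Over all genes, DESeq2 called 251 for isoproterenol averaged over genotypes, 101 in Set7KO and 2719 in WT, 2 for genotype averaged over treatments, 297 after isoproterenol, 21 after saline, and 2321 for the interaction. Without the filter the same counts were 159, 31, 1512, 2, 3, 19 and 1686. limma-voom called 14 and the offsets 15 for isoproterenol averaged. For isoproterenol in WT the offsets, the filter of 1 CPM in 2 libraries and the size factors of DESeq2 called 3 each. Only the groups compared gave 5043 for isoproterenol in WT, 1303 for genotype after isoproterenol and 0 after saline. Of the 10 genes, isoproterenol in WT and the interaction had 2 and 2 called by DESeq2 and 1 and 1 without the filter. Only the groups compared called 3 of them for isoproterenol in WT and 1 for genotype after isoproterenol.

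With GC and length offsets the median of the 10 was 0.18 for isoproterenol averaged, 0.01 in WT, 0.47 for genotype after isoproterenol and 0.71 for the interaction. The sign changed for 17 of the 70 values of the 10 genes, among them Cd34 (-0.01) in the averaged isoproterenol comparison, Ddr2 (0.01) and Tbx20 (0.36) in Set7KO, Dpt (-0.19), Gsn (0.11), Cd34 (-0.89) and Dpep1 (0.03) in WT, and Tbx20 (0.26) in the interaction.

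With each library left out in turn, and with offsets where a Set7KO saline library was left out, the number of all genes called ranged from 0 to 42 for isoproterenol averaged, 0 to 486 in Set7KO and 0 to 3765 in WT. It ranged from 1 to 2 for genotype averaged, 0 to 2 after isoproterenol, 0 to 1030 after saline, and 0 to 5778 for the interaction. Of the 10 genes, 0 to 2 passed for isoproterenol in Set7KO, 0 to 2 in WT, 0 to 1 for genotype after saline and 0 to 6 for the interaction. The 1030, 486 and 5778 arose without Set7KO saline replicate 1, the 42 and 3765 without replicate 2. Medians of the 10 ranged from 0.13 to 0.42 for isoproterenol averaged, 0.33 to 0.84 in Set7KO, 0 to 0.26 in WT (0.04 without WT isoproterenol replicate 1), -0.15 to 0.23 for genotype averaged, 0.09 to 0.48 after isoproterenol, -0.52 to 0.01 after saline and 0.14 to 0.99 for the interaction. Values that changed sign in these fits ranged, for isoproterenol averaged, from -0.25 to 0.46 (Cd34) and -0.06 to 0.51 (Ddr2). In Set7KO they ranged from -0.44 to 0.53 (Ddr2), -0.17 to 0.69 (Dpt), -0.12 to 0.74 (Pdgfra) and -1.07 to 0.68 (Tbx20). In WT they ranged from -0.90 to 0.45 (Cd34), -0.50 to 0.01 (Dpep1), -0.23 to 0.19 (Dpt), -0.62 to 0.11 (Gsn) and -0.02 to 0.54 (Mfap5). Ddr2 ranged from -0.43 to 0.65 for genotype after saline and from -1.63 to 0.29 for the interaction, Tbx20 from -2.46 to 0.59 and Cd34 from -0.01 to 2.47 for the interaction, and Tbx20 from -0.68 to 0.03 for genotype averaged.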
